A study of Caenorhabditis elegans with 10 samples.

Results

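The 5 genes described here are *pud-3* (WBGene00017501), *pud-4* (WBGene00017498), *pud-2.2* (WBGene00017490), *ddn-1* (WBGene00015227) and *B0507.8* (WBGene00015225) of the nematode *Caenorhabditis elegans*. Out of 15106 genes in the deposited table, they were chosen by their normalized counts, which are low in both *smg* mutants and high in the *clk-2* mutant. Their differences from N2 in these mutants are therefore a description and carry no test. The rule named no threshold.

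RNA was extracted from whole young adults grown at 20°C, with 2 libraries each of the wild-type strain N2, *smg-1(rrr59)*, *smg-2(rrr60)* and *clk-2(qm37)*. A further library each of N2 and *clk-2* came from animals moved to 25°C for 3 hours, which the labels call heat shock. According to the strain list of the study, the listed *smg-1(rrr59)* and *smg-2(rrr60)* strains, which came from a chemical mutagenesis screen, carry the transgene rrrSi482, which N2 lacks, and which makes GFP fused to histone H2B from the promoter of the ubiquitous gene *dpy-30*. The *clk-2* allele is temperature sensitive, and the study used 3 hours at 25°C, the restrictive temperature, to inactivate CLK-2. It calls 20°C permissive for this allele in a figure legend, while its methods name a lower permissive temperature. The listed *clk-2* strain carries a different reporter of the same kind, and the *clk-2* columns of the table have a name that mixes the names of 2 alleles. In all 3 mutants the mutation and the reporter background cannot be told apart. A lower value in whole animals can mean fewer cells that make the RNA or less RNA in each cell, and these cannot be told apart either.

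SMG-1 is the kinase and SMG-2 the helicase of nonsense-mediated mRNA decay (NMD), which degrades mRNAs whose translation stops prematurely. CLK-2 is the nematode TEL2 protein, which in mammals helps to assemble kinases of the SMG1 family. The *pud* genes are named for proteins that become more abundant in mutants of the insulin receptor gene *daf-2*. The *C. elegans* PUD-1 and PUD-2 proteins bind each other and are made mainly in the intestine and the hypodermis. For *ddn-1* and *B0507.8* no role is stated here.

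Library totals ran from 3051836 to 14209955 reads. Values are normalized counts, that is, reads divided by 1 size factor per library, and 1 read was worth between 0.643 and 2.93 normalized counts. The shallowest libraries were *clk-2* replicate 1, with 3523986 reads, and *clk-2* at 25°C. *clk-2* RNA was between 485 and 676 normalized counts in the 10 libraries and *smg-2* RNA between 942 and 1673. *smg-1* RNA was 2021 and 2222 in N2 and between 3783 and 6206 in the mutants at 20°C. The mutations change the sequence of these genes, so their RNA levels do not check the labels.

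In *C. elegans* chromosome V (WBcel235, Ensembl annotation) the 5 genes lie at 2 loci, and all are protein-coding. The *pud* locus spans 8893 nucleotides from 2322038 to 2330930 and holds 6 genes with strands that alternate. In order they are *pud-1.2* (minus), F15E11.14 (plus), *pud-3* (minus, 2324634 to 2325152), *pud-4* (plus, 2326678 to 2327282), *pud-2.2* (minus, 2329444 to 2329954) and *pud-1.1* (plus). The gaps between them measure 447, 1109, 1525, 2161 and 474 nucleotides. Ensembl gives the symbol *pud-2.2* both to the chosen gene, F15E11.1, which RefSeq calls *pud-2.1*, and to F15E11.14. Here *pud-2.2* means F15E11.1 only. The copies of *pud-1* and of *pud-2* are near-identical, and reads that match several places were dropped, so *pud-2.2*, F15E11.14, *pud-1.1* and *pud-1.2* are measured on their unique parts and their values are uncertain.

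The *ddn-1* locus is 3 genes on the minus strand that span 5650 nucleotides. They are *B0507.7* (8757312 to 8758718), *ddn-1* (8758820 to 8760516) and *B0507.8* (8760622 to 8762961), with gaps of 101 and 105 nucleotides. Transcription runs from *B0507.8* through *ddn-1* to *B0507.7*. Genes on the same strand this close together are often transcribed as an operon in *C. elegans*. The annotation used here does not mark operons. The exonic lengths are 519 nucleotides in 1 exon for *pud-3*, 564 for *pud-4*, 465 for *pud-2.2*, 1430 in 6 exons for *ddn-1* and 1281 in 9 exons for *B0507.8*.

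*ddn-1* had 26.7 and 42.2 normalized counts in N2 replicates 1 and 2. In *smg-1* it had 7.45 and 6.85, and in *smg-2* 13.4 and 9.48. In *clk-2* it had 513 and 343. No library of one strain overlapped with those of another. The mean was 34.4 ± 11.0 (SD, n = 2) in N2 and 428 ± 120 in *clk-2*, with 7.15 ± 0.425 in *smg-1* and 11.4 ± 2.78 in *smg-2*. On the log2(value + 1) scale *ddn-1* was lower than in N2 by 2.08 (SE 0.33) in *smg-1* and by 1.49 (SE 0.33) in *smg-2*, and it was higher by 3.60 (SE 0.33) in *clk-2*. The 15 reads of both *smg-1* libraries, against 92 in N2, gave an N2 level 4.77 times as high, with an exact 95% counting interval of 2.75 to 8.88.

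*B0507.8*, the gene upstream of *ddn-1*, had 19.6 and 18.7 normalized counts in N2. In *smg-1* replicate 1 it had no read, where 3 reads would be 3.19 normalized counts, and in replicate 2 it had 7.71. In *smg-2* it had 6.04 and 2.71. In *clk-2* it had 349 and 239. All 4 *smg* libraries lay below both N2 libraries, and the *smg-1* and *smg-2* libraries overlapped each other. The log2 difference from N2 was -2.77, -1.98 and 3.85 (SE 0.82 each) for *smg-1*, *smg-2* and *clk-2*. The *smg-1* value rests on 9 reads against 52 in N2, a ratio of 0.222 with a counting interval of 0.0963 to 0.455. It moved with the library left out, from -4.34 without replicate 2 to -1.21 without replicate 1 of *smg-1*.

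*pud-2.2* had 11.2 and 8.59 normalized counts in N2, 1.06 and 1.71 in *smg-1*, 2.68 and 2.71 in *smg-2*, and 54.4 and 54.7 in *clk-2*. The strains did not overlap, and the replicates of *smg-2* and of *clk-2* differed by about 1.01-fold. The *smg* libraries held few reads of it, 1 and 2 in *smg-1* and 4 and 4 in *smg-2*. The ratio of *smg-1* to N2 over these reads was 0.143 with a counting interval of 0.0277 to 0.464, and that of *smg-2* to N2 was 0.270 with an interval of 0.106 to 0.612. The log2 differences from N2 were -2.19, -1.55 and 2.36 (SE 0.43 each) in *smg-1*, *smg-2* and *clk-2*.

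*pud-3* had 126 and 164 normalized counts in N2, 2.13 and 22.3 in *smg-1*, 12.7 and 27.1 in *smg-2*, and 2136 and 2897 in *clk-2*. Its log2 differences from N2 were -4.08, -2.88 and 4.11 (SE 0.73 each). *pud-4* had 61.7 in each N2 library, 3.19 and 15.4 in *smg-1*, 4.69 and 17.6 in *smg-2*, and 867 and 964 in *clk-2*. Its log2 differences were -2.92, -2.61 and 3.87 (SE 0.63 each). For both genes replicate 1 was the lower one in each *smg* strain, by 10.5-fold for *pud-3* and 4.83-fold for *pud-4* in *smg-1*. In *smg-1* replicate 1 the values rest on 2 reads of *pud-3* and 3 of *pud-4*. Without that library the *smg-1* differences were -2.63 and -1.93.

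**Figure D1:**
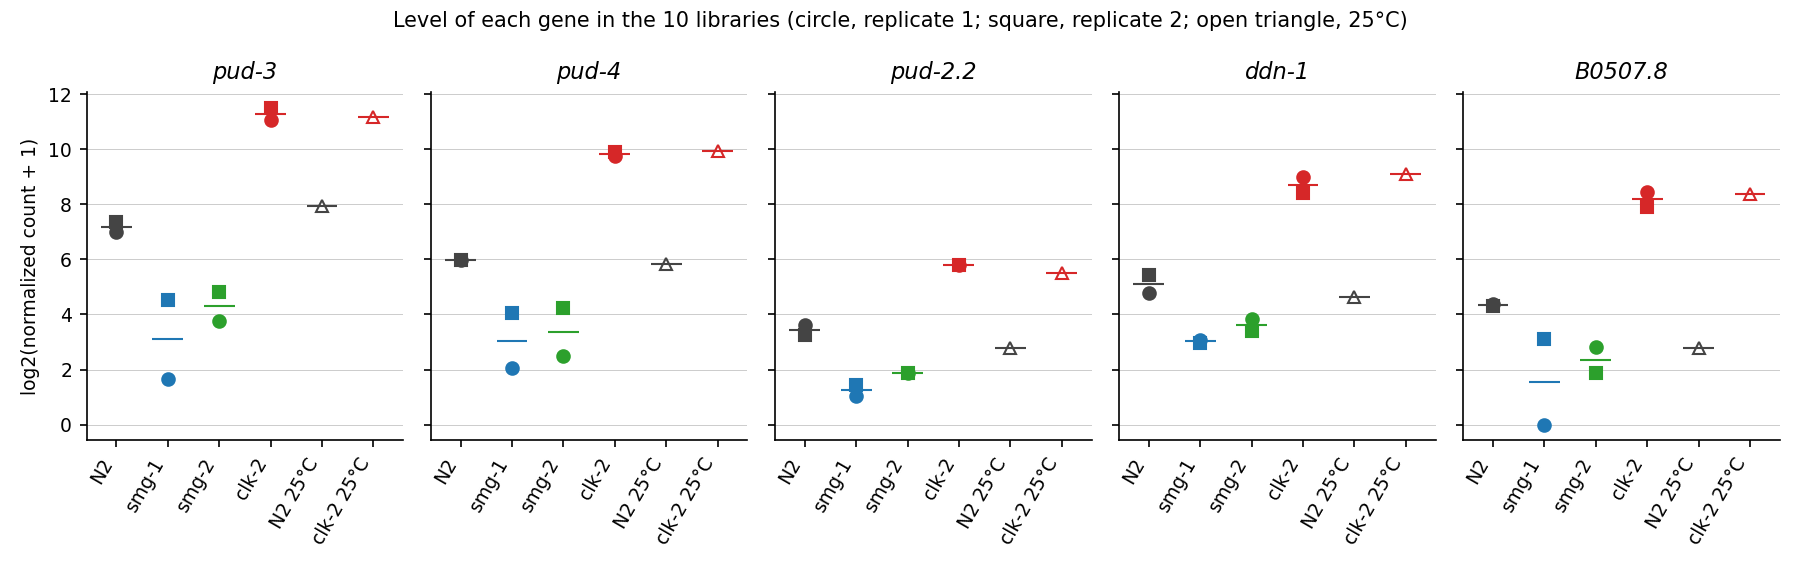
Level of each of the 5 genes in the 10 libraries, as log2(normalized count + 1). Circles are replicate 1, squares replicate 2, open triangles the 25°C libraries, and each short line is the mean of a group; for every gene the 4 *smg* libraries lie below both N2 libraries at 20°C and the *clk-2* libraries lie above them.

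The median log2 difference of the 5 genes from N2 was -2.77, -1.98 and 3.85 for *smg-1*, *smg-2* and *clk-2* respectively, against -0.02, -0.02 and 0.02 over the 13869 genes tested. A gene was called changed at a log2 difference above 1 or below -1 with an unadjusted p under 0.05, which is the criterion of the study. By it, 1.23% of all genes tested were called down in *smg-1*, 0.382% in *smg-2* and 8.41% up in *clk-2*. The choice of the 5 genes fixes their place in these tails. *pud-3* had the lowest difference of all genes tested in *smg-1* and the second lowest in *smg-2*. In *clk-2* the 5 genes ranked from 31 (*pud-3*) to 259 (*pud-2.2*) from the top. The mean of at least 10 normalized counts over the 8 libraries at 20°C, which a gene needed to be tested, was passed by all 5. *pud-2.2* and *B0507.8* passed it only through the *clk-2* libraries, with means of 4.66 and 9.14 over the other 6 libraries.

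**Figure D2:**
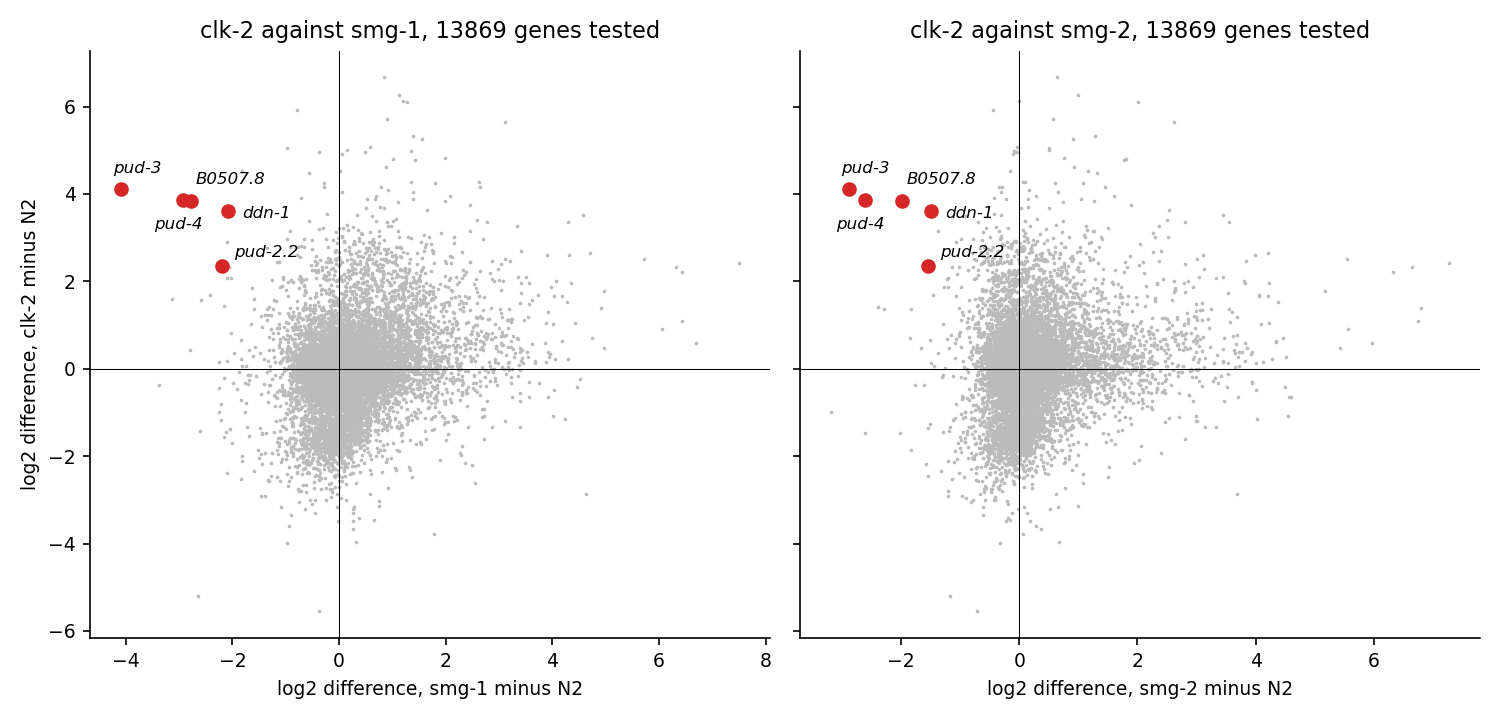
Log2 difference from N2 of *clk-2* (vertical axes) against that of *smg-1* (left) and *smg-2* (right) for 13869 genes tested, at 20°C. The 5 chosen genes (red) sit at the upper left, between -4.08 and -2.08 in *smg-1*, between -2.88 and -1.49 in *smg-2* and between 2.36 and 4.11 in *clk-2*; both axes of a panel share the N2 libraries.

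Outside the 5, 1 gene met these criteria in all 3 mutants, down in both *smg* mutants and up in *clk-2*. It is F59C6.18 on chromosome I, which had 14.0 and 26.5 normalized counts in N2, 6.39 and 5.14 in *smg-1*, 4.69 and 4.74 in *smg-2*, and 82.8 and 32.1 in *clk-2*. It was named after its values were seen. In all, 31 genes were called down in both *smg* mutants, and 34 genes had the opposite pattern, up in both *smg* mutants and down in *clk-2*. By the order of the libraries alone, 652 genes, or 4.70% of those tested, had every *smg* library below both N2 libraries and both *clk-2* libraries above them. These comparisons share the N2 libraries.

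Levels of different genes can be compared only per length. Per 1000 exonic nucleotides, *pud-3* had a mean of 279 normalized counts in N2, *pud-4* 109, *ddn-1* 24.1, *pud-2.2* 21.3 and *B0507.8* 14.98. The libraries of *ddn-1* and *pud-2.2* overlapped on this scale, and the other neighbours in this order did not. In *clk-2* the means were 4848 for *pud-3*, 1624 for *pud-4*, 299 for *ddn-1*, 230 for *B0507.8* and 117 for *pud-2.2*, and only *ddn-1* and *B0507.8* overlapped. In *smg-1* the order was *pud-3* (23.5), *pud-4* (16), *ddn-1* (5.0), *B0507.8* (3.01) and *pud-2.2* (2.99), with overlap between all neighbours but *pud-4* and *ddn-1*. In *smg-2* the first 3 overlapped in turn, at 38.4, 19.8 and 8.01, followed by *pud-2.2* at 5.80 and *B0507.8* at 3.41. For *pud-2.2*, which was measured on its unique parts only, the full 465 nucleotides were used. Its place in these orders is therefore uncertain.

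Ratios of reads within a library do not depend on the size factor. *pud-4* had 5.50 and 7.18 reads for each read of *pud-2.2* in N2, and 15.95 and 17.65 in *clk-2*, with exact 95% counting intervals of 3.21 to 10.04 and 3.804 to 14.97 against 10.3 to 26.1 and 14.2 to 22.2. *ddn-1* had 1.36 and 2.25 reads per read of *B0507.8* in N2 and 1.47 and 1.43 in *clk-2*, and all 4 counting intervals overlapped. In the N2 library at 25°C it had 4.14, from 29 reads of *ddn-1* and 7 of *B0507.8*. The interval of this ratio, 1.78 to 11.2, lay above that of *clk-2* replicate 2, which was 1.25 to 1.64. It overlapped the intervals of N2 replicate 1 (0.811 to 2.30) and N2 replicate 2 (1.37 to 3.81). The intervals of *clk-2* replicate 1 (1.17 to 1.84) and of *clk-2* at 25°C (1.31 to 2.11) also overlapped with it. *pud-3* had 2.03 and 2.66 reads per read of *pud-4* in N2 and 2.46 and 3.00 in *clk-2*, and 4.28 (interval 3.28 to 5.66) in N2 at 25°C. The ratio of *pud-3* to *ddn-1* differed between the *clk-2* replicates, at 4.17 (interval 3.56 to 4.89) and 8.45 (interval 7.72 to 9.26). The genes of the *ddn-1* locus were 1.495-fold (*ddn-1*) and 1.46-fold (*B0507.8*) higher in *clk-2* replicate 1, while *pud-3* was 1.36-fold higher in replicate 2. The intervals cover counting error only.

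Between the *smg* mutants the 5 genes are also only described, since the choice used the levels of both and asked for both to be low. All 5 had the lower mean in *smg-1*. The log2 difference, *smg-1* minus *smg-2*, was -1.20 (SE 0.73) for *pud-3*, -0.31 (SE 0.63) for *pud-4*, -0.64 (SE 0.43) for *pud-2.2*, -0.59 (SE 0.33) for *ddn-1* and -0.79 (SE 0.82) for *B0507.8*. The *smg-1* and *smg-2* libraries did not overlap for *pud-2.2* and *ddn-1* and overlapped for the other genes. The share of all genes tested without such overlap was not counted, so this shows nothing particular to the 5 genes. Of all genes tested, 0.88% were called lower and 1.81% higher in *smg-1* than in *smg-2*. Without *smg-1* replicate 1 the difference was 0.24 for *pud-3*, 0.67 for *pud-4* and 0.77 for *B0507.8*, so its direction for these 3 rests on that library.

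**Figure D3:**
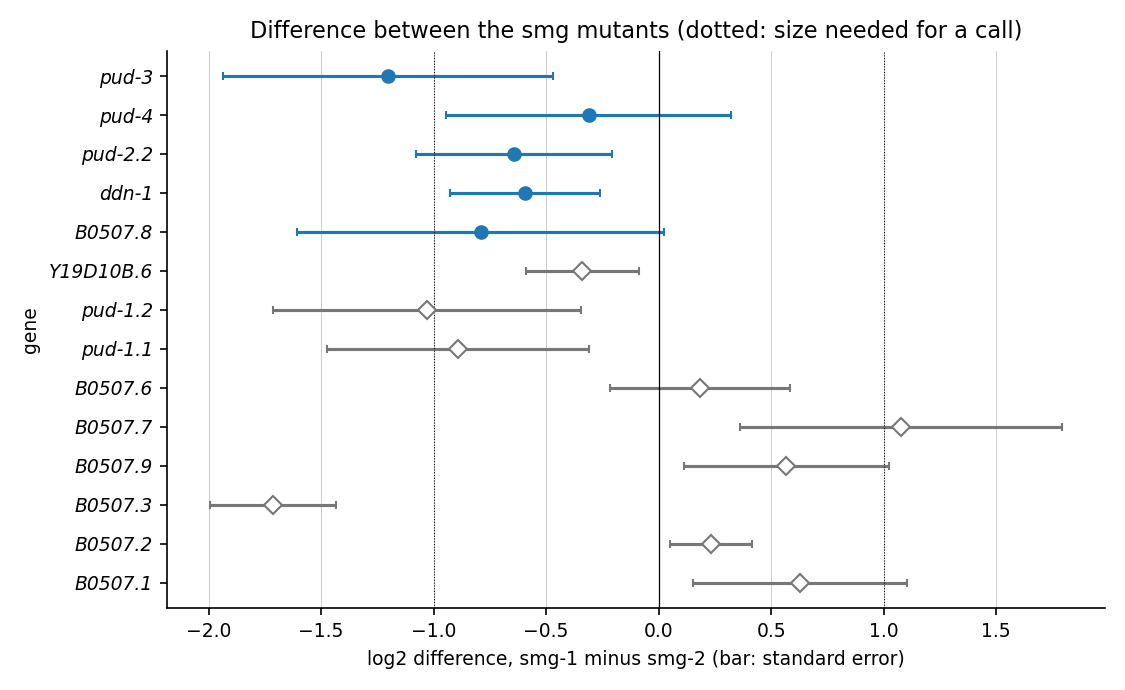
Log2 difference between *smg-1* and *smg-2* (*smg-1* minus *smg-2*) for the 5 chosen genes (filled circles) and the 9 tested relatives and neighbours (open diamonds). Bars are standard errors and dotted lines mark a difference of 1; among the relatives and neighbours only *B0507.3*, at -1.71, was called.

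The relatives and neighbours of the 5 genes were taken by name and place. They are 27 annotated genes: those with a *pud* or *ddn* name, those on the same clones and those that start within 20 kb of a member. Of these, 12 are in the table and 9 were tested. *ddn-2* and *ddn-3* were not analysed here. Of the 9, *pud-1.1*, *pud-1.2* and *B0507.7* passed the filter only through the *clk-2* libraries, where they are high, so their differences in *clk-2* are given as a description with no test. Of the other 6, 2 were called up in *smg-1* against 8.98% of all genes tested, 2 in *smg-2* against 6.86% and 3 in *clk-2* against 8.41%. Among those up in each *smg* mutant is *B0507.9*, which passed the filter only through the *smg* libraries, where it is high. Its calls there are therefore no test. None of the 6 was called down in a mutant by limma, edgeR or DESeq2. *pud-1.1* and *pud-1.2* were called down in *smg-1*, where 1.23% of all genes tested were. None of the 9 was called down in *smg-2* by limma or DESeq2, where 0.382% of all genes tested were, and edgeR called 1, *pud-1.1*.

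*pud-1.1* and *pud-1.2*, whose PUD-1 product pairs with PUD-2, were low in N2. *pud-1.2* had 7.72 and 10.2 normalized counts in N2, 0 and 4.28 in *smg-1*, 3.35 and 4.06 in *smg-2*, and 75.1 and 70.7 in *clk-2*. *pud-1.1* had 4.91 and 10.9 in N2, 1.06 and 0.857 in *smg-1*, 2.01 and 3.39 in *smg-2*, and 23.3 and 50.8 in *clk-2*. For each gene the *smg* libraries lay below both N2 libraries and the *clk-2* libraries above them. The log2 difference in *clk-2* was 2.91 (SE 0.68) for *pud-1.2* and 2.08 (SE 0.58) for *pud-1.1*. Both were called down in *smg-1*, with differences of -2.10 (SE 0.68, adjusted p = 0.054 in limma) and -2.10 (SE 0.58, adjusted p = 0.030). In *smg-2* they were not called, at -1.07 and -1.21, but *pud-1.1* was called without N2 replicate 1 (-1.71), and *pud-1.2* was called at the same -1.07 without either *smg-1* library, which changes the shared estimate of the spread. With quantile normalization both were called down in *smg-2*, at -1.67 for *pud-1.2* and -1.86 for *pud-1.1*, and edgeR called *pud-1.1* (-1.50).

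These calls rest on few reads, 5 of *pud-1.2* and 2 of *pud-1.1* in both *smg-1* libraries together. The corresponding ratios to N2 were 0.268 (counting interval 0.0798 to 0.716) and 0.122 (0.0139 to 0.501). Without *smg-1* replicate 1 the difference of *pud-1.2* in *smg-1* was -0.90 and no longer called, and with a pseudocount of 10 neither gene was called in *smg-1*. Without *clk-2* replicate 2 the difference of *pud-1.1* in *clk-2* was 1.53. F15E11.14, below the filter, had 4.91 and 7.03 normalized counts in N2, 1.06 and 0.857 in *smg-1*, 0.671 and 2.03 in *smg-2*, and 28.5 and 18 in *clk-2*. Y19D10B.6, which lies next to *pud-1.2*, was not called in any mutant. Its log2 differences were -0.01, 0.33 and 0.64, and without *clk-2* replicate 2 the last was 1.004 and called.

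At the *ddn-1* locus, *B0507.7*, the gene downstream of *ddn-1*, had 2.10 and 0.781 normalized counts in N2, 2.13 and 4.28 in *smg-1*, 0 and 2.71 in *smg-2*, and 49.2 and 34.7 in *clk-2*. In *clk-2* its log2 difference from N2 was 4.17 (SE 0.71). That is 73 reads against 4, a ratio of 25.4 with a counting interval of 9.52 to 95.9. In the *smg* mutants, where its 2 neighbours were low, its differences were 0.79 and -0.29 and it was not called. At this depth a lower level could not have been seen, since N2 itself held 3 and 1 reads.

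**Figure D4:**
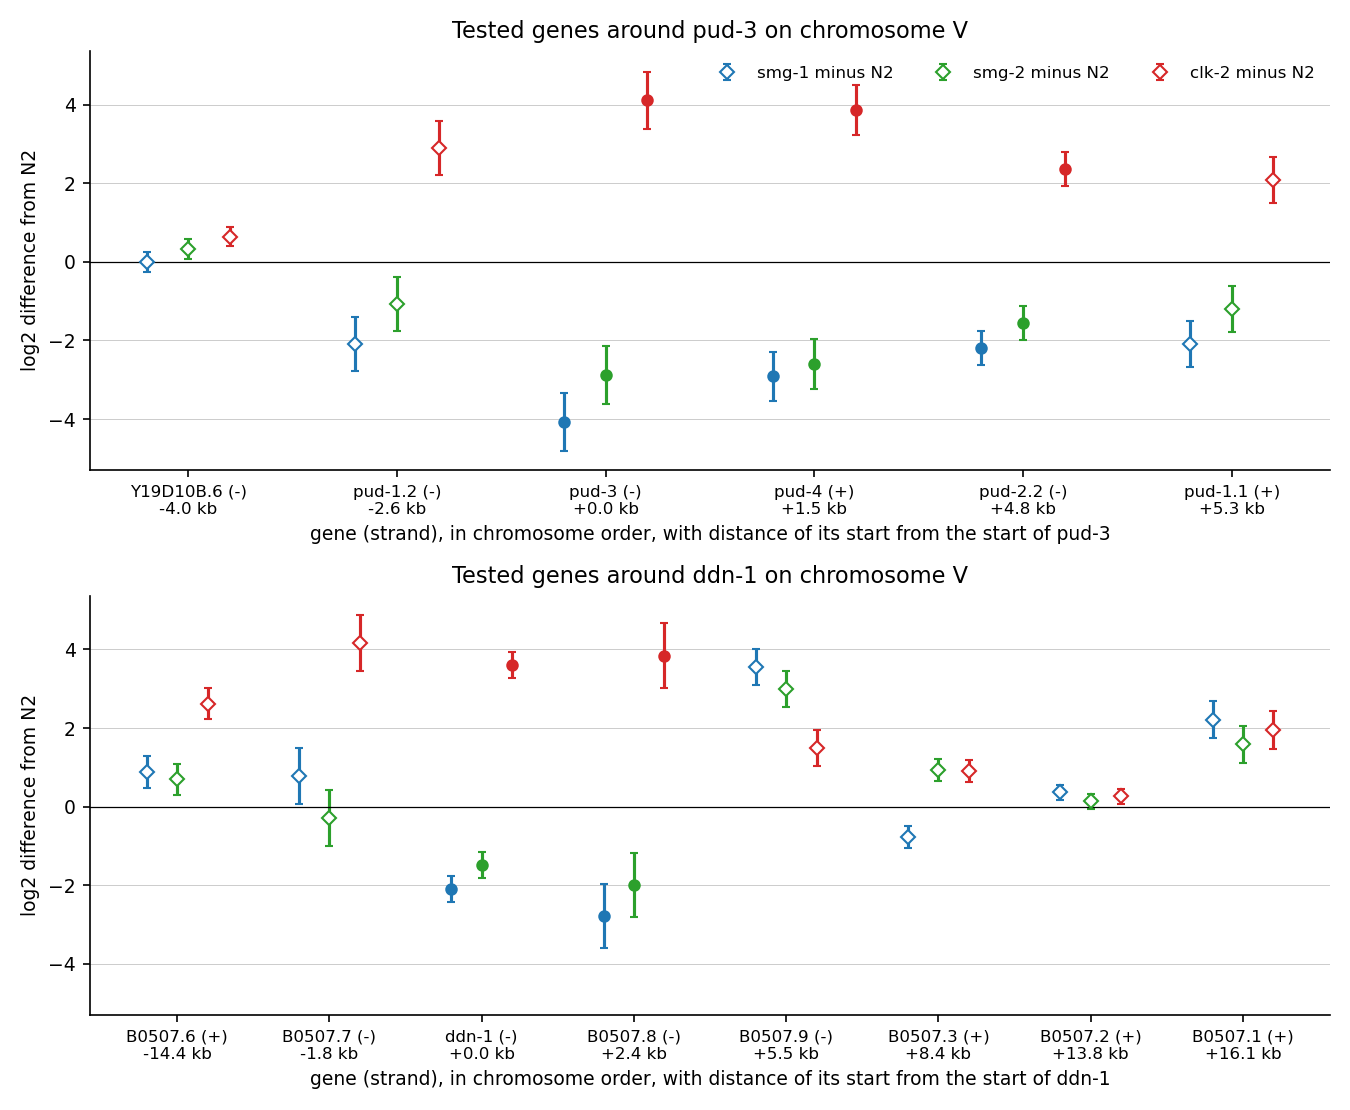
Log2 difference from N2 (vertical axes) of the tested genes at the *pud* locus (top) and the *ddn-1* locus (bottom), in chromosome order with strand and distance from *pud-3* or *ddn-1*. Blue is *smg-1*, green *smg-2* and red *clk-2*, filled circles are the 5 chosen genes, open diamonds the others, and bars are standard errors; *B0507.9*, next to *B0507.8*, is at 3.56 and 2.99 in the *smg* mutants.

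The next gene on the same strand, *B0507.9*, lies 1991 nucleotides upstream of *B0507.8*. It had 1.40 and 1.56 normalized counts in N2, 24.5 and 32.5 in *smg-1*, 23.5 and 14.9 in *smg-2*, and 7.77 and 4.50 in *clk-2*. Its values in N2 and *clk-2* were all below 10, so it passed the filter only through the *smg* libraries. Its differences in the *smg* mutants are therefore a description with no test. They were 3.56 (SE 0.45) in *smg-1* and 2.99 (SE 0.45) in *smg-2*. The ratios to N2 over reads were 19.6 (interval 7.27 to 74.2) and 13 (interval 4.81 to 49.3). In *clk-2*, *B0507.9* rose by 1.48 (SE 0.45, adjusted p = 0.036 in limma). That call was lost without *clk-2* replicate 1 (1.15), with DESeq2 and with a pseudocount of 10.

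*B0507.1*, at the far end of the clone, had 11.2 and 43.7 normalized counts in N2 and between 67.1 and 108 in the 6 mutant libraries. It rose by 2.21 (SE 0.48, adjusted p = 0.010) in *smg-1*, by 1.58 (adjusted p = 0.074) in *smg-2* and by 1.95 (adjusted p = 0.014) in *clk-2*. Without N2 replicate 1 the *smg-2* difference was 0.65 and not called. It overlaps *B0507.2*, so reads of the shared stretch are uncertain. In N2 *B0507.6* had 11.9 and 11.7 normalized counts. It had 103.5 and 58.5 in *clk-2* and rose there by 2.62 (SE 0.40, adjusted p = 0.0011). Its *smg* differences of 0.88 and 0.70 were not called, although without *smg-1* replicate 1 the *smg-1* difference was 1.35 and called, and edgeR called it at 1.07. *B0507.2* was not called in any mutant.

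*B0507.3* differed between the *smg* mutants. It had 47.7 and 37.5 normalized counts in N2, 29.8 and 19.7 in *smg-1*, 71.1 and 94.2 in *smg-2*, and 75.1 and 86.8 in *clk-2*. No *smg-1* library overlapped with the others. The difference between *smg-1* and *smg-2* was -1.71 (SE 0.28, adjusted p = 0.026 in limma). Against N2 it did not reach a log2 difference of 1 in any mutant, at -0.78, 0.94 and 0.92. It passed that size in *smg-1* with quantile normalization (-1.09) and without *smg-1* replicate 1 (-1.06), without N2 replicate 1 in *smg-2* (1.11) and *clk-2* (1.09), without *smg-2* replicate 1 in *smg-2* (1.14) and without *clk-2* replicate 1 in *clk-2* (1.02). Between the *smg* mutants, *pud-1.2* was also called without *smg-1* replicate 2 (-2.23) and *B0507.7* without *smg-2* replicate 2 (2.02).

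The libraries at 25°C have no replicates and give no test. At 25°C *ddn-1* had 24.1 normalized counts in the N2 library and 553 in that of *clk-2*, a ratio of 23.0 with a counting interval of 15.5 to 35.2. *B0507.8* had 5.81 in N2, from 7 reads, and 334 in *clk-2*, a ratio of 57.4 with an interval of 27.0 to 146. *pud-2.2* had 5.81 and 43.9, *pud-3* 242 and 2286, and *pud-4* 56.4 and 966. All 5 genes were higher in *clk-2* by more than 1 on the log2 scale, as were 12.7% of all genes tested. The log2 differences were 3.24 for *pud-3*, 4.07 for *pud-4*, 2.72 for *pud-2.2*, 4.47 for *ddn-1* and 5.62 for *B0507.8*. Their median was 4.07, against -0.07 over all genes tested.

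Between temperatures, the median of the 5 genes differed by -0.46 in N2 and by 0.08 in *clk-2*. In N2 the 25°C library was below both 20°C libraries for *pud-4*, *pud-2.2*, *ddn-1* and *B0507.8*, and above them for *pud-3*. In *clk-2* it lay between the 20°C libraries for *pud-3* and *B0507.8*, above them for *pud-4* and *ddn-1*, and below them for *pud-2.2*. The shares of all genes tested with such placements were not counted. Each placement rests on 1 library at 25°C, so no common change with temperature is read from them. The small heat shock protein gene *hsp-16.2* had 831 normalized counts in the N2 library at 25°C and 164 in that of *clk-2*, against 35.8 and 63.2 in N2 and 25.9 and 10.9 in *clk-2* at 20°C. For the genes of the *pud* locus outside the 5, the 25°C values of N2 and *clk-2* were 8.30 and 64.4 for *pud-1.2* and 3.32 and 52.7 for *pud-1.1*. *B0507.7* had 1 read in N2 and 19 in *clk-2*.

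The 6 genes whose log2 profile over the 10 libraries was most like the mean standardised profile of the 5, by Pearson's r, were *pud-1.2* (0.98), *F45E1.4* (0.98), *asah-1* (0.97), *cpr-9* (0.97), *C32H11.4* (0.97) and *F35F10.1* (0.97). *asah-1* encodes an acid ceramidase and *cpr-9* a cathepsin B-like protease. The 10 points share strains and fall into groups by strain, with the 3 *clk-2* libraries apart, so r is a description with no test. Apart from *pud-1.2*, these genes lie outside both loci, and their differences were smaller than the medians of the 5. *F45E1.4* had 78.6 and 93.7 normalized counts in N2, 55.4 and 59.96 in *smg-1*, 55.0 and 62.3 in *smg-2*, and 199 and 206 in *clk-2*. *C32H11.4* had 85.6 and 78.1 in N2, 35.1 and 32.5 in *smg-1*, 59.7 and 53.5 in *smg-2*, and 435 and 258 in *clk-2*. *pud-1.1* ranked 11 in this order and *B0507.7* ranked 552. Among the 5 genes themselves r ran from 0.94 to 0.99.

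Since *pud* genes are named for reduced insulin signalling, components of that pathway were read beside them. Of 20 tested insulin signalling genes, among them the receptor gene *daf-2* and the transcription factor gene *daf-16*, 0 were called in any mutant by limma. At an unadjusted p under 0.05 and any size, 6, 4 and 2 of the 20 differed from N2 in *smg-1*, *smg-2* and *clk-2*, where 35.3%, 21.4% and 39% of all genes tested did. edgeR and DESeq2 each called 1 up in *smg-1* and 0 in the others. The median log2 difference of the list was -0.25, -0.15 and 0.04.

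Of 14 tested genes known to respond to *daf-16*, 6 rose and 1 fell in *clk-2*, where 8.41% of all genes tested rose and 10.3% fell, with a median of 0.61 against 0.02 over all genes. The 6 are *ftn-1* (ferritin, 4.17), *mtl-1* (metallothionein, 3.27), *sod-3* (superoxide dismutase, 1.78), *lys-7* (lysozyme-like, 1.70), *dod-24* (1.24) and *dod-19* (1.17). *ftn-1* had 2.81 and 14.05 normalized counts in N2, at most 6.10 in the *smg* libraries, and 111 and 163 in *clk-2*. It passed the filter only through the *clk-2* libraries, so its rise is a description with no test. For the others the adjusted p ran from 8.4e-05 to 0.027 in limma. *icl-1*, of the glyoxylate cycle, fell by 1.92 (adjusted p = 7.5e-05). In *smg-1*, 0 rose and only the small heat shock protein gene *hsp-12.6* fell, by 1.49. In *smg-2* *mtl-1* rose by 1.12 and *hsp-12.6* fell by 1.38. edgeR and DESeq2 each called 1 of the 14 up in *smg-1*. The median in the *smg* mutants was 0.07 and -0.06. The list was not split by the direction in which its genes respond to *daf-16*. Its counts and medians therefore give no direction of that response. Of 4 tested heat shock genes, 2 fell in each *smg* mutant and 3 in *clk-2* in limma, where 1.23%, 0.382% and 10.3% of all genes tested fell. edgeR called 2 in each of the 3, and DESeq2 called 2, 1 and 2. In *smg-2* no such gene had an adjusted p under 0.05, and 0 were called without N2 replicate 2 or *smg-2* replicate 1. In *clk-2* 1 was called without N2 replicate 2, and 2 without either *clk-2* library.

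Markers of cell types were read for the tissues that make PUD proteins and for others. In *clk-2*, 4 of 7 hypodermis markers rose, where 8.41% of all genes tested did, with a median of 2.26, and these 4 (*dpy-7*, *dpy-5*, *rol-6* and *bli-1*) are all cuticle collagen genes. *col-19*, also a collagen gene, and the transcription factor genes *lin-26* and *elt-3* were at -0.32, 0.29 and -0.31 and not called. N2 replicate 1 was low in these collagens, with 652 normalized counts of *dpy-5* against 3771 in replicate 2. Without N2 replicate 1 the median was 0.997 with 3 calls, and without N2 replicate 2 it was 3.53 with 4. Between the N2 replicates *ddn-1* was 1.58-fold lower in replicate 1, *pud-3* was 1.31-fold lower in it, *pud-2.2* was 1.31-fold higher, and *pud-4* and *B0507.8* differed by at most 1.05-fold. The summed hypodermis list was 21567 to 24004 normalized counts in N2 and 26004 to 26190 in *clk-2*. Most of this sum is *col-19*, with 20056 and 18477 in N2 and 14211 and 16740 in *clk-2*. *dpy-5* had 8172 and 6937 in *clk-2*. The sum therefore mixes collagen genes that moved in opposite directions.

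In the *smg* mutants *dpy-7* was the only hypodermis marker called, up by 2.52 in *smg-2* (adjusted p = 0.067 in limma), and DESeq2 did not call it. Without N2 replicate 1 the hypodermis list had 2 down in each *smg* mutant, and without N2 replicate 2 it had 3 up in each. The list sums, again mostly *col-19*, were 22719 to 24723 in *smg-1* and 26688 to 27711 in *smg-2*. Of 8 intestine markers 0 were called in any mutant by limma, edgeR or DESeq2, with 3, 0 and 5 at an unadjusted p under 0.05 in *smg-1*, *smg-2* and *clk-2*, and 1 was called up in *clk-2* without its replicate 2. Of all genes tested, 35.3%, 21.4% and 39% had an unadjusted p under 0.05 in *smg-1*, *smg-2* and *clk-2*. The summed intestine list was 26271 to 32646 in N2, 27124 to 28883 in *smg-1*, 26378 to 27919 in *smg-2* and 38598 to 44248 in *clk-2*.

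Of 30 *msp* genes, which encode major sperm proteins, 29 fell in *clk-2*, where 10.3% of all genes tested did. In *smg-1* 6 fell, where 1.23% of all genes tested did, and in *smg-2* 2, where 0.382% did. The median differences were -0.80, -0.59 and -1.93 in *smg-1*, *smg-2* and *clk-2*. *msp-74* rose in *smg-1* (2.31) and *smg-2* (2.87). Leaving out 1 N2 library gave 3 to 13 that fell in *smg-1* (13 without replicate 1, 3 without replicate 2) and 1 to 6 in *smg-2* (6 and 1). Without *smg-2* replicate 1, 3 fell in *smg-2*, and without its replicate 2, 1 did. The sum of the list was 23258 to 29917 in N2, 15528 to 15799 in *smg-1*, 16420 to 19013 in *smg-2* and 6663 to 6837 in *clk-2*. Of 8 oocyte and germline markers, 6 had an unadjusted p under 0.05 in *smg-1* in limma, where 35.3% of all genes tested did. These 6 also had an adjusted p under 0.05. The median over the list was -0.77, and *oma-2*, which encodes an oocyte maturation protein, was called down (-1.13). Without N2 replicate 1 none was called in *smg-1*, without N2 replicate 2 there were 4, and without *smg-1* replicate 1 there were 3. In *smg-2* none of the 8 was called by the 3 tools. At an unadjusted p under 0.05 there were 3, where 21.4% of all genes tested were, and the median was -0.27. Their sum was 23933 to 29876 in N2, 18918 to 19545 in *smg-1*, 23033 to 24238 in *smg-2* and 22046 to 26702 in *clk-2*. In *clk-2* the oocyte and germline list had 0 calls by all 3 tools. At an unadjusted p under 0.05 there were 4 of 8, where 39% of all genes tested were. Muscle and neuron lists had 0 calls in any mutant by these tools, with at most 3 of 4 and 1 of 5 at an unadjusted p under 0.05, and 1 muscle marker was called up in *smg-2* without N2 replicate 2. Of all genes tested, 35.3%, 21.4% and 39% had an unadjusted p under 0.05 in *smg-1*, *smg-2* and *clk-2*. Only 1 tested marker, of sperm, was at 0 in any library. The part of these markers in the values of the 5 genes was not tested.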

How the data were processed

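RNA-seq of whole animals was deposited as 1 table of 15106 genes in 10 libraries. According to the methods of the study, rRNA was removed before ScriptSeq library preparation. Reads were aligned to WBcel235 with STAR 2.5.4a, those with a unique match were kept, and counting was limited to exons of protein-coding genes. The labels also name a TruSeq kit. The deposited table holds a signal, in which the authors scaled the reads of each gene by the size factor of the library. Of all values, 100.0% gave whole reads within a tolerance of 0.01. No strand setting is given in the sources used here, so overlapping genes are uncertain. Depth is given with the results, and 0 columns were left without a sample.

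For tests, limma 3.58.1 (R 4.3.3; functions lmFit and eBayes with trend=TRUE) was run on log2(value + 1). The 8 libraries at 20°C were in one fit with no replicate block. Genes needed a mean of 10, which 13869 reached. Benjamini-Hochberg adjustment was over all of them. The labels do not say that replicates are separate cultures, so p-values measure only the spread between these libraries. Alternatives were pseudocounts of 0.1 and 10, no filter, a mean of at least 100, a replicate block, quantile normalization, edgeR 4.0.16 and DESeq2 1.42.0 on the recovered reads, adjusted p, comparing *clk-2* at 25°C with N2 at 20°C, and leaving out each library. A replicate block with crossed numbers was chosen after seeing the data. The scripts were tested on simulated data. The 5 genes and all lists were chosen with earlier results of these data known. The planned test of the 5 genes between the *smg* mutants is given as a description, since the rule used both levels. Genes named are the 5, their tested relatives and neighbours, the 6 most correlated genes and list genes that were called.

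Genes were placed with the Ensembl annotation of WBcel235, and RefSeq names were read beside it. No genome sequence was used here. Columns of group comparisons were not used.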

Additional observations from a re-analysis of the deposited data

Results flagged for a closer look

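*B0507.3*, a neighbour of *ddn-1*, was lower in *smg-1* than in *smg-2* by the limma test of the difference between the strains, with a log2 difference of -1.71 (*smg-1* minus *smg-2*, SE 0.28, adjusted p = 0.026). All 17 alternative fits also called it, with log2 differences from -2.0 to -1.42 and adjusted p from 0.0013 to 0.35.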

How the results depend on the processing

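The median difference from N2 of the 5 genes kept its direction under every alternative run. It ranged from -3.90 to -1.35 in *smg-1*, from -2.61 to -1.03 in *smg-2* and from 3.36 to 3.91 in *clk-2*. The 5 genes were chosen by these same values, so the kept direction is no test of the pattern. The values at the weak end, -1.35 and -1.03, came from a pseudocount of 10. Leaving out 1 library gave -3.90 to -1.997 in *smg-1*. At 25°C the median was 3.98 with N2 at 20°C as the reference. Between the *smg* mutants, leaving out 1 library gave -2.65 to 0.24 for *pud-3*, -1.30 to 0.67 for *pud-4* (0.67 without *smg-1* replicate 1, 0.54 without *smg-2* replicate 2) and -2.35 to 0.77 for *B0507.8*, with 0 to 2 of the 5 genes past the criteria, which is no test. The same numbers of *smg-1* and *smg-2* did not deviate together over all genes tested (correlation 0.035). For N2 with the mutants the correlations were -0.27 to 0.10. These values cannot show whether libraries of the same number were prepared together. The replicate block left the medians at -2.77, -1.98 and 3.85 and the calls of relatives at 2 up and 2 down, 2 and 0, and 6 and 0. With the numbers of *clk-2* or *smg-1* crossed these counts were also 2 and 2, 2 and 0, and 6 and 0. *pud-1.1*, *pud-1.2* and *B0507.7*, which passed the filter only through the *clk-2* libraries, are 3 of the 6 in *clk-2*. The first 2 of them are the 2 down in *smg-1*. For *clk-2* the steady count is therefore no test of these 3. *B0507.9*, which passed only through the *smg* libraries, is among those up in each *smg* mutant, and those counts are no test of it.

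Of the 9 relatives and neighbours, 0 were called down in *smg-1* with a pseudocount of 10 and 1 with adjusted p. In *smg-2* 1 was called up with adjusted p, and 2 down with quantile normalization, 1 with edgeR and 0 to 1 without 1 library. A mean of at least 100 left 1 of the 9, with 0 calls. Of the insulin signalling genes 1 was up in *smg-1* with edgeR and with DESeq2, and 0 to 1 without 1 library. Of the *daf-16* responsive genes 1 was up in *smg-1* with a pseudocount of 0.1, edgeR or DESeq2, and 0 to 2 without 1 library. In *smg-2* 0 were up with a pseudocount of 10, a mean of at least 100, quantile normalization or adjusted p, and 0 to 2 without 1 library. With a pseudocount of 10 or a mean of at least 100, 0 were down in *smg-1* and in *smg-2*, and with adjusted p 0 were down in *smg-2*, where leaving out 1 library gave 0 to 1. A mean of at least 100 left 3 up in *clk-2*, among 10 tested. The cause of these shifts was not tested. Depth limits *pud-2.2*, *B0507.8* and *B0507.7*, which had between 0 and 9 reads in each *smg* library. It also limits *pud-1.1* and *pud-1.2*, which had between 0 and 6. The same holds for *ddn-1* in *smg-1* (7 and 8 reads) and for *pud-3* and *pud-4* in *smg-1* replicate 1 (2 and 3 reads).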
